A study of Mus musculus with 36 samples.

Results

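The 33 genes described here encode enzymes, carriers and regulators of cholesterol and fatty acid synthesis. They form a list of symbols, chosen with earlier results of these data known, and were matched through NCBI gene numbers to the 2 deposited mouse expression tables. All 33 were found in both, among 19001 genes of the table of paired-end libraries and 17697 genes of the table of single-end libraries, and all 33 passed the filter on low values in every comparison below. The list holds 19 sterol genes (18 enzymes and the sterol carrier Stard4), 5 regulators (Srebf1, Srebf2, Scap, Insig1 and Insig2) and 9 fatty acid enzymes (Acly, Acaca, Fasn, Me1, Elovl6, Scd1, Scd2, Fads1 and Fads2).

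The study asked what the C-terminal end of p53, the transcription factor activated by DNA damage, contributes to gene regulation in liver, spleen and thymus. RNA from 36 pieces of these organs was sequenced in 12 groups of 3. The paired-end libraries came from wild-type (wt) mice without treatment and from wt mice given X-rays, with 2 Gy and 3 h stated in the labels. The single-end libraries came from wt mice and from mice whose p53 lacks its C-terminus (d24), all titled as X-ray samples. For 9 of these, the 3 libraries each of d24 liver, d24 thymus and wt spleen, another label gives control as the treatment, and for the 9 libraries titled d24 a label gives WT as the cell type. The other 9 single-end libraries carry the same dose and time as the irradiated paired-end ones. Groups were taken from the titles. Age, sex, strain, whether d24 mice carried 1 or 2 altered alleles, and which libraries came from the same animal are not given in the labels, so p-values measure the spread between these samples. A value per gene does not show whether the C-terminal codons were present.

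As background, cholesterol is built from acetyl-CoA through mevalonate, isoprenoid and squalene intermediates, and the fatty acid branch makes, elongates and desaturates acyl chains from the same precursor. Most of these genes are targets of the SREBP transcription factors, encoded by Srebf1 and Srebf2. Scap escorts the SREBP precursors out of the endoplasmic reticulum when sterols are scarce, and Insig1 and Insig2 hold them back when sterols are plentiful. Liver makes sterols and fatty acids for export, while lymphoid cells make membrane lipid for growth and division.

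The promoters show what many of these genes share in sequence. RefSeq promoter windows (GRCm38.p6, 250 bases before the annotated start) were at hand for 26 of the 33 genes. They were searched on both strands for a sterol response element (TCACNCCAC), its shorter core (TCACNCC), the NF-Y box (CCAAT) and an E-box (CACGTG). The NF-Y box was found in 20 of the 26 genes (76.9%), against 37.5% of all 27025 genes in the promoter table. By branch, it was in 14 of 15 sterol genes (93.3%), 4 of 5 regulators and 2 of 6 fatty acid enzymes (33.3%). The sterol response element in this strict spelling was found in 1 gene, Hmgcs1, against 1.22% of all genes. Its core was in 5 genes (19.2%), namely Acat2, Hmgcs1, Insig2, Msmo1 and Srebf2, against 15.1% of all genes. The E-box was in 5 genes (19.2%) against 6.86%. The core lies within every match to the longer element. These counts describe letters in a window and name no bound factor.

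Promoters of 5 genes on which the results below turn are shown 5′ to 3′ on the gene's strand, with matches to the motifs in capitals (ATTGG is CCAAT on the opposite strand). Hmgcs1 (chr13:119690101-119690350, + strand) holds the strict sterol response element from 137 to 129 bases before the start, a second core from 220 to 214 bases before it, and 3 NF-Y boxes. Sequence just after this RefSeq start was not found in the first 400 bases of a GENCODE transcript of the gene. The same held for Nsdhl, Sc5d and 1 window of Srebf1. That check used spliced transcripts, so a short first exon can also fail it. Idi1 (chr13:8885356-8885605, + strand) holds 2 NF-Y boxes. Cyp51 (chr5:4104698-4104947, - strand) holds 1 NF-Y box. Msmo1 (chr8:64733579-64733828, - strand) holds the core and 3 NF-Y boxes. Fads2 (chr19:10101504-10101753, - strand) holds none of these letters. The promoters of Fasn and Me1, the fatty acid enzymes with NF-Y boxes, are not shown.
Hmgcs1: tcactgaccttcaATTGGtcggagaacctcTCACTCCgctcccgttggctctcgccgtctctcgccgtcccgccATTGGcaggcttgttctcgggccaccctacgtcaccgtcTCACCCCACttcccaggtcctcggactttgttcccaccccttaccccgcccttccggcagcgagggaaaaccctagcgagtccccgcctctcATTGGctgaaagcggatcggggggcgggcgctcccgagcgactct
Idi1: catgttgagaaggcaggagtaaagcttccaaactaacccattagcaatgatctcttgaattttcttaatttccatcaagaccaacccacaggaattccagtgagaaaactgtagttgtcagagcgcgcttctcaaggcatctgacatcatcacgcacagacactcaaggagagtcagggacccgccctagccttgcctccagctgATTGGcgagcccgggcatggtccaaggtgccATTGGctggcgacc
Cyp51: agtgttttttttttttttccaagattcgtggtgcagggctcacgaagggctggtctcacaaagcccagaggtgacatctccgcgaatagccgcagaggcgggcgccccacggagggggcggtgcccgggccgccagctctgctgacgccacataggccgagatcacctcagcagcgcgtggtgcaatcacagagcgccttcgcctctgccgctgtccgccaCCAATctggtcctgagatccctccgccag
Msmo1: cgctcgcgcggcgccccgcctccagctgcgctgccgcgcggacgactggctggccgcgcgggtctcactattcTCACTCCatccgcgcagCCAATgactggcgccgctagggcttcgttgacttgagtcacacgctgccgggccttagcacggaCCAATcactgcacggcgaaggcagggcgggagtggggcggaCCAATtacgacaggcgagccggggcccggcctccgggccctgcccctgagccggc
Fads2: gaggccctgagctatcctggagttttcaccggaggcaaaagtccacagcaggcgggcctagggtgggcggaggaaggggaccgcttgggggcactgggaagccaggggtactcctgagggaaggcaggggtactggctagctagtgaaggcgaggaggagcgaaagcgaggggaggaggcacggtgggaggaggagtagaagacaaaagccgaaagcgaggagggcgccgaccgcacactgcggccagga

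Values are called signal: read counts relative to library size, scaled by the authors with a further factor per library. Depth was 44348579 to 81322683 reads per paired-end library and 20481048 to 38042710 reads per single-end library. Replicates of a group correlated at Pearson's r of 0.980 to 0.995 in the paired-end and 0.903 to 0.985 in the single-end table, across genes. The summed signal of 10 p53 target genes was 1471 to 1564 in irradiated paired-end spleen against 198.4 to 211.9 in untreated spleen. In the single-end table it was 1120 to 1556 in d24 spleen and 247.2 to 285.9 in the wt spleen libraries titled xray. The single-end wt thymus libraries titled xray gave 267.1 to 299.2, near the 217.8 to 238.7 of untreated and below the 1184 to 1280 of irradiated paired-end thymus. Single-end wt liver gave 190.3 to 314.2, above the 150.1 to 161 of untreated and below the 495 to 583.1 of irradiated paired-end liver. The tables were normalised separately and differ in library type, so these sums stand side by side without a test. Read this way, the p53 targets of the wt single-end spleen and thymus libraries go against their titles, though those of thymus also carry the dose label. Genotype and irradiation therefore cannot be told apart in the d24 comparisons of these tissues. Libraries with more Xist than Ddx3y, which mark female and male RNA, were unevenly spread: 1 of 3 untreated and 2 of 3 irradiated libraries in each paired-end tissue, and 2 or 3 of 3 d24 against 1 or 2 of 3 wt libraries in the single-end tissues.

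Untreated liver held more transcript of nearly every gene in the list. Between untreated liver and spleen, 32 of 33 genes were higher in liver and none lower by limma at a Benjamini-Hochberg adjusted p under 0.05, while 42.9% of all 15141 genes tested were higher and 43% lower. Between liver and thymus, 32 genes were higher and 1, Scd2, was lower in liver, against 44.4% and 42% of all genes. The largest liver-to-spleen differences on the log2 scale were 7.24 ± 0.11 (SE) for Sc5d, a sterol desaturase, and 6.85 ± 0.19 for Hmgcs1, the HMG-CoA synthase that starts the mevalonate pathway. The smallest called difference was 0.63 ± 0.10 for Srebf2, the SREBP that mainly drives the sterol genes. Scd2 was the exception in both contrasts, at -0.15 ± 0.14 against spleen, which did not pass, and -2.25 ± 0.14 against thymus.

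Per kilobase of exon, the order of the levels within a tissue differed. In untreated liver the 3 highest were Fdps, which makes farnesyl diphosphate, at 888 ± 200 signal per kb (SD, n = 3), Hmgcs1 at 762 ± 240 and the stearoyl-CoA desaturase Scd1 at 595 ± 110. Fdps and Hmgcs1 differed by less than either SD, and Hmgcs1 and Scd1 by less than the SD of Hmgcs1. Scd2, the second stearoyl-CoA desaturase, was last of the 33 in untreated liver at 11.0 ± 2.1 signal per kb and first in untreated thymus at 52.3 ± 6.8. In untreated spleen Scd1 was first at 33.8 ± 2.7 signal per kb, followed by Fdps at 28.5 ± 7.0. Scd1 and Scd2 are close relatives, so their reads may be split between them in ways that the sources used here do not state.

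The lymphoid organs also differed from each other without treatment. In spleen against thymus, 8 genes were higher and 12 lower by limma, against 36.8% and 35.8% of all genes. The desaturases went opposite ways. Scd1 was 2.31 ± 0.29 higher on the log2 scale in spleen, with the fatty acid desaturases Fads1 at 1.33 ± 0.10 and Fads2 at 1.28 ± 0.12, while Scd2 was lower in spleen at -2.10 ± 0.14. Me1, the malic enzyme that supplies NADPH, was lower in spleen at -2.65 ± 0.17, as were Fasn (fatty acid synthase, -0.92 ± 0.18) and Dhcr7 (the last step to cholesterol, -1.14 ± 0.13).

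X-rays changed 17 of the 33 genes in wt spleen, 9 upward and 8 downward (limma, adjusted p under 0.05). Of all 13389 genes tested, 19.5% rose and 20.4% fell, so the members' 27.3% and 24.2% lie a little above the background in both directions. The sterol genes split evenly, with 5 higher, 5 lower and a median log2 difference of 0.02. The fatty acid enzymes split as well, with 3 higher, 3 lower and a median of 0.35, and the median over all genes was -0.03. The plot of 6 genes by library shows the spread behind these counts.

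**Figure D1:**
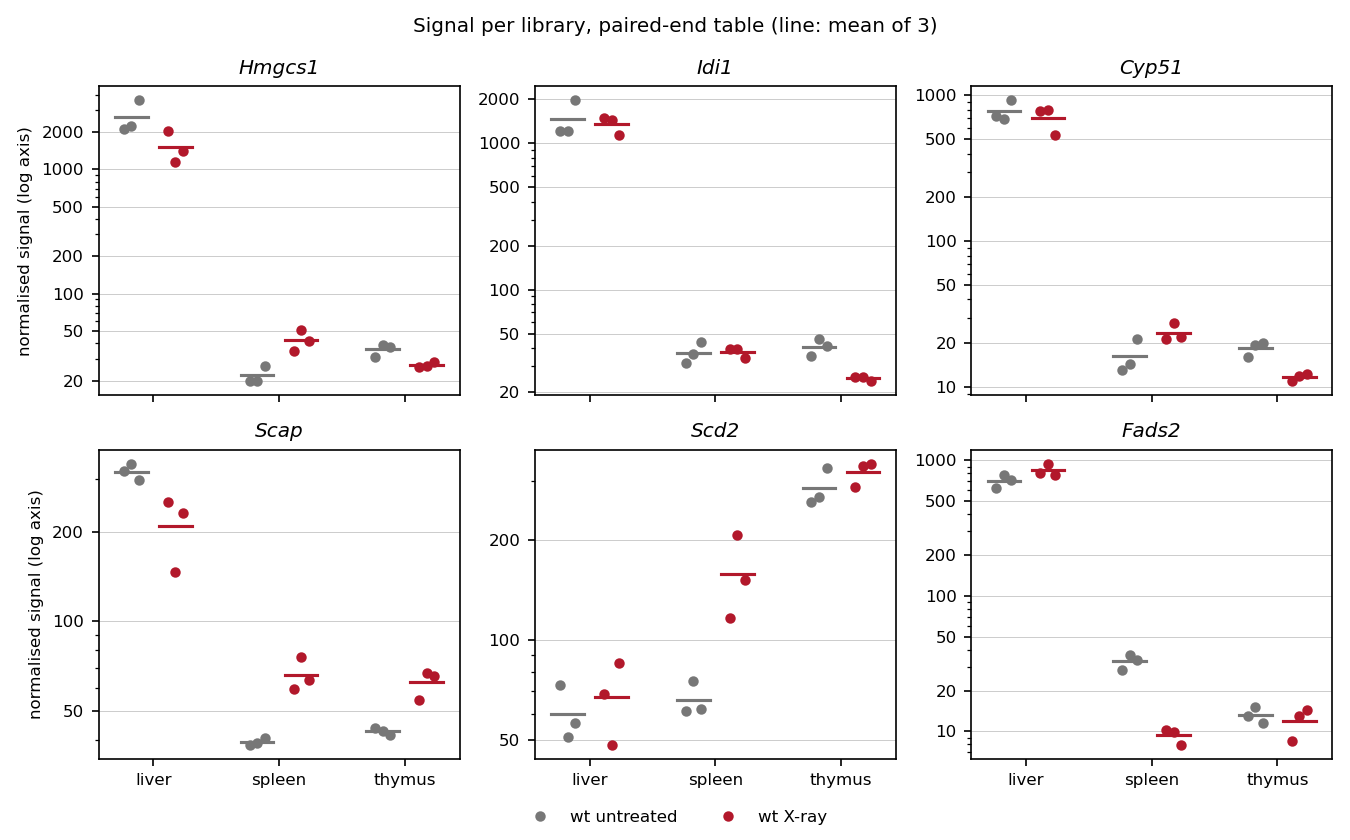
Signal of Hmgcs1, Idi1, Cyp51, Scap, Scd2 and Fads2 (log axis) in each wild-type paired-end library, by tissue and treatment. Points are libraries and lines are means of 3. Hmgcs1 stands higher in irradiated than untreated spleen and lower in irradiated than untreated thymus, and Fads2 in spleen drops from 28.3 to 36.4 to below 10.3.

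Among the sterol enzymes of spleen, the start of the mevalonate pathway moved both ways. Acat2, the cytosolic thiolase that feeds it, had a signal of 27.0, 28.7 and 30.8 in untreated and 21.3, 18.8 and 15.4 in irradiated libraries, a fall of the log2 value by 0.64 ± 0.13 (SE; limma adjusted p = 0.00603). Hmgcs1, the next enzyme, measured 19.8, 19.8 and 26.4 without and 34.6, 51.5 and 41.9 with X-rays, so all irradiated libraries lay above all untreated ones. Its log2 difference was 0.93 ± 0.17 (limma adjusted p = 0.00314). Further along, Mvd (mevalonate diphosphate decarboxylase) rose by 0.80 ± 0.15 and Msmo1 (a sterol C4 demethylase) by 0.61 ± 0.15, and Pmvk (phosphomevalonate kinase) fell by 0.66 ± 0.16. Fdft1, squalene synthase, rose by 0.77 ± 0.17, but 774 bases of its exons lie opposite exons of Ctsb, whose own log2 difference was 0.48. Cyp51, the lanosterol demethylase, measured 13.1, 14.5 and 21.4 without and 21.4, 27.7 and 22.1 with X-rays. Its highest untreated library overlapped its lowest irradiated one, and its log2 difference was 0.55 ± 0.18 (limma adjusted p = 0.0409). Tm7sf2 (a sterol reductase, -0.56), Ebp (a sterol isomerase, -0.43) and Stard4 (-0.31) fell. Idi1 (isopentenyl diphosphate isomerase, 0.03 ± 0.14), Sqle (squalene epoxidase, -0.17 ± 0.16) and Lss (lanosterol synthase, 0.19 ± 0.17) did not pass.

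Of the regulators in spleen, Scap rose. It measured 38.6, 39.0 and 40.7 in untreated and 59.4, 76.1 and 63.5 in irradiated libraries, a log2 difference of 0.74 ± 0.12 (limma adjusted p = 0.00182) with no overlap. A gene model of unassigned type, 5830462I19Rik, shares 785 exon bases with it on the opposite strand. Srebf2 at 0.38 ± 0.14 and Insig1 at 0.35 ± 0.13 narrowly missed the threshold (limma adjusted p = 0.0540 and 0.0552), and Srebf1 was at -0.24 ± 0.15.

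The fatty acid branch of spleen held the list's largest changes. Fads2, the delta-6 desaturase of polyunsaturated fatty acids, measured 28.3, 36.4 and 33.8 in untreated and 10.2, 9.85 and 7.96 in irradiated libraries. It fell by 1.76 ± 0.14 on the log2 scale (limma adjusted p = 6.11e-05). Scd2 measured 61.3, 75.0 and 62.2 without and 116, 206 and 151 with X-rays and rose by 1.21 ± 0.20 (limma adjusted p = 0.00192). These desaturases thus moved in opposite directions, each without overlap between the groups. Elovl6, which elongates palmitate, fell from 6.40, 9.89 and 7.29 to 3.01, 3.57 and 3.61, by 1.08 ± 0.17 (limma adjusted p = 0.00153). Fads1, the delta-5 desaturase, fell by 0.62 ± 0.19, and Me1 and Fasn rose by 0.75 ± 0.13 and 0.74 ± 0.23. Scd1, the highest of the list in spleen, measured 173, 168 and 149 against 170, 323 and 220 and did not pass (limma adjusted p = 0.0907).

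Of the pathway genes outside the list, 5 of 17 sterol genes rose and 2 fell in irradiated spleen, and 3 of 18 tested fatty acid genes rose and 7 fell. The 3 with the smallest p in each set were Nr1h3 (the sterol receptor LXR-alpha, 1.59 on the log2 scale), Erg28 (-0.58) and Por (cytochrome P450 reductase, 0.70), and Hacd3 (-0.89), Acss2 (acetyl-CoA synthetase, -0.91) and Acsl5 (an acyl-CoA synthetase, -0.73).

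Cell markers moved in the same spleens. All 9 of the 10 macrophage markers that could be tested rose, with summed signals of 1171 to 1868 against 682.2 to 870.9, 4 of 8 B cell markers rose (1450 to 2168 against 1116 to 1337), and 6 of 12 cycling genes fell. All 8 of the 10 hepatocyte markers that could be tested rose as well, with sums of 41.92 to 503.1 in irradiated against 24.58 to 47.61 in untreated spleen, which overlap. In the irradiated spleen library with the most Alb, Alb stood at 0.121% of its mean in irradiated liver, and that share of liver Hmgcs1 is a signal of 1.84, against the 51.5 measured. The part of these marker and cycling genes, hepatocyte markers included, in the results on the list, Hmgcs1 included, was not tested. In tissue RNA, fewer cells of a type and less RNA per cell cannot be told apart. Without 1 library at a time, 9 of the 17 genes passed in all 6 refits: Acat2, Hmgcs1, Mvd, Fdft1, Scap, Me1, Elovl6, Scd2 and Fads2. With the replicate number as a block 17 genes passed, without Stard4 and with Acaca, and with Xist as a covariate 13 passed, without Cyp51, Fads1, Fasn and Stard4.

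**Figure D2:**
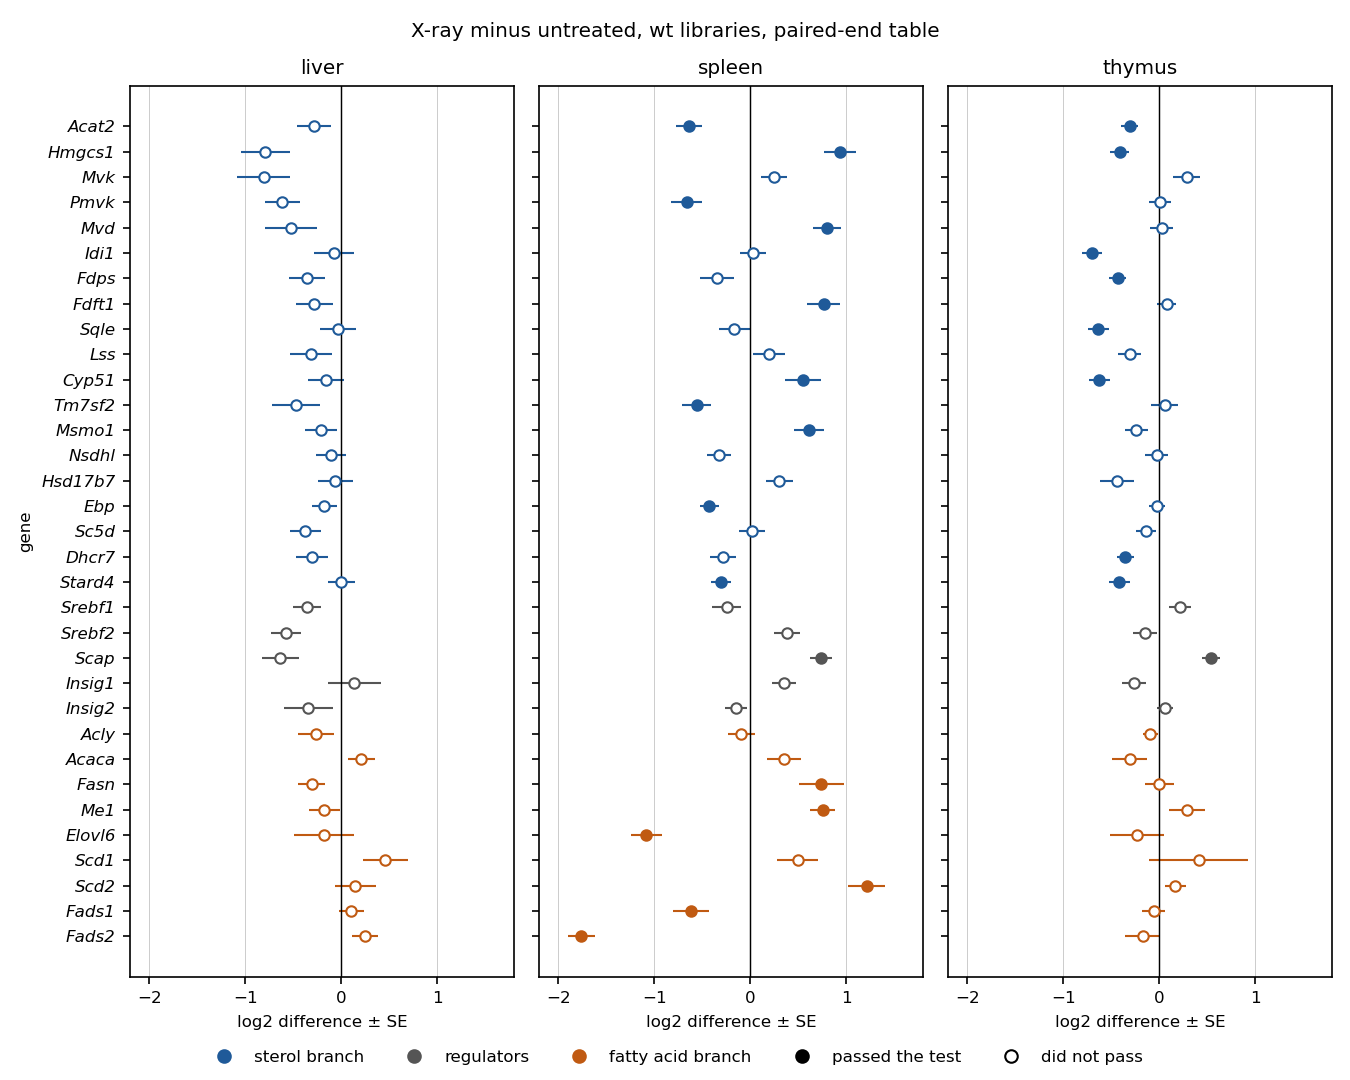
Log2 difference of irradiated minus untreated libraries (± SE) for the 33 genes in wild-type liver, spleen and thymus, grouped by role. Filled points passed limma at an adjusted p under 0.05: none in liver, 17 in spleen and 9 in thymus. In thymus the filled points are 8 sterol genes on the lower side and Scap on the higher side.

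In wt thymus the calls lay in the sterol branch and Scap. Of 19 sterol genes 8 fell and none rose (limma), with 14 of 19 differences negative, and of the 9 fatty acid enzymes none passed, with 0 at an unadjusted p under 0.05 and 0 calls by edgeR and by DESeq2. Over all 13810 genes tested, 9.77% rose and 11.6% fell. The median log2 difference was -0.31 for sterol genes, -0.06 for fatty acid enzymes and 0.01 for all genes.

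Idi1 had the largest called fall in thymus. Its signal was 35.2, 45.7 and 41.3 in untreated and 25.3, 25.3 and 23.7 in irradiated libraries, a fall by 0.70 ± 0.10 on the log2 scale (limma adjusted p = 0.00200). Sqle, which commits squalene to sterols, measured 18.5, 22.7 and 22.0 against 12.4, 14.6 and 13.1 and fell by 0.64 ± 0.11 (limma adjusted p = 0.00423). Cyp51 measured 16.2, 19.3 and 20.2 against 11.0, 12.02 and 12.4 and fell by 0.63 ± 0.11 (limma adjusted p = 0.00469). In each of these genes every irradiated library lay below every untreated one. Hmgcs1 measured 31.2, 38.7 and 37.6 against 25.7, 26.3 and 28.0 and fell by 0.41 ± 0.10 (limma adjusted p = 0.0167), again with no overlap. Fdps (-0.44 ± 0.09), Stard4 (-0.42 ± 0.11), Dhcr7 (-0.36 ± 0.09) and Acat2 (-0.31 ± 0.09) fell as well. Scap measured 43.9, 42.9 and 41.6 in untreated and 54.5, 67.4 and 65.8 in irradiated thymus and rose by 0.54 ± 0.09 (limma adjusted p = 0.00434).

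Among the fatty acid enzymes of thymus, Scd2 measured 259, 269 and 328 against 288, 333 and 338 (0.17 ± 0.11) and Fads2 13.0, 15.2 and 11.6 against 8.47, 13.0 and 14.3 (-0.17 ± 0.18). Scd1 varied more between replicates than between groups, at 38.5, 17.5 and 50.1 without and 46.3, 18.6 and 92.7 with X-rays. Summed adipocyte markers varied too, from 48.52 to 239.4 in untreated and from 70.47 to 532.7 in irradiated thymus, and their part in Scd1 was not tested. Outside the list, 3 of 17 sterol genes rose and 3 fell, and 1 of 20 tested fatty acid genes rose and 4 fell. Among those with the smallest p were Tmem97 (-1.05) and Nr1h3 (0.89), and Lpin1 (a phosphatidate phosphatase, 1.75), Acsl5 (-0.51) and Hacd3 (-0.42).

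In the irradiated thymus 7 of 12 cycling genes fell (summed signal 1624 to 1751 against 2045 to 2497), 5 of 10 thymic epithelial markers rose (985.6 to 1143 against 613.7 to 648.7) and 5 of 8 tested macrophage markers rose (498.4 to 740.5 against 368.5 to 438.4). Thymocyte markers summed to 5490 to 6989 against 5460 to 6303, with 1 of 10 lower. Hepatocyte markers were positive in 10 of 10, without a call by limma, and summed to 57.04 to 1507 against 27.28 to 184.7. The part of these genes in the sterol result was not tested. Of the 9 genes, Idi1, Fdps, Sqle, Cyp51 and Scap passed in all 6 refits without 1 library, and 5 genes in all passed without untreated replicate 2 or without untreated replicate 3.

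Of the 17 genes called in spleen and the 9 called in thymus, 5 were in both. Hmgcs1 and Cyp51 rose in spleen and fell in thymus, Acat2 and Stard4 fell in both, Scap rose in both, and 12 genes passed in neither.

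In wt liver no gene of the list passed the test (limma), with 7 at an unadjusted p under 0.05 (21.9% of all genes were), 0 calls by edgeR and 1, Srebf2, by DESeq2. All 7 (Hmgcs1, Mvk, Pmvk, Sc5d, Srebf1, Srebf2 and Scap) were lower in irradiated liver. Few genes passed in liver at all, 0.204% higher and 0.0377% lower of 13250. The median log2 difference was -0.29 for sterol genes, of which 18 of 19 were negative, -0.36 for regulators, 0.11 for fatty acid enzymes and -0.05 for all genes. In 5 genes (Hmgcs1, Pmvk, Srebf1, Srebf2 and Scap) all irradiated libraries lay below all untreated ones, 15.2% of the list against 13.9% of all genes, and in none above, against 13.5%.

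Hmgcs1 measured 2109, 2239 and 3617 in untreated and 2021, 1152 and 1414 in irradiated liver (-0.79 ± 0.26 on the log2 scale, limma adjusted p = 0.192). Srebf2 measured 151, 138 and 150 against 120, 77.9 and 101 (-0.57 ± 0.16) and Scap 319, 339 and 298 against 251, 147 and 231 (-0.64 ± 0.19). Single libraries stood apart: untreated replicate 3 was the highest of its group for 17 of 19 sterol genes, and irradiated replicate 1 was the highest of its group for 17 of 19. Without irradiated replicate 1, 10 of the 33 genes were lower by limma, together with 2836 genes in all. Among 12 clock genes, none of which passed limma, 10 had positive differences, with a median of 0.86 on the log2 scale (-1.29 to 2.11). Of this list, Dbp, an output of the circadian clock, measured 38.0, 24.9 and 2.24 without and 28.4, 24.3 and 22.6 with X-rays. It was lowest in the untreated library with the highest sterol values. All 12 cycling genes had negative differences, without a call by limma. Fasting genes such as Pck1 summed to 7446 to 8480 in irradiated and 6316 to 7075 in untreated liver, without overlap. Of these 10 genes, 6 were positive and 4 negative. The adipocyte list, which also holds Pck1, summed to 2861 to 2994 against 569.9 to 1706, with 4 of 6 tested genes positive and 2 negative. No gene of either list passed limma. The part of the clock, cycling, fasting and adipocyte genes in the sterol values was not tested. The 17 other sterol genes and 21 other fatty acid genes gave no call in liver by limma, with 3 and 6 at an unadjusted p under 0.05.

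The response to X-rays differed between tissues for 14 of the 33 genes (limma F test of the treatment by tissue interaction, adjusted p under 0.05), against 30.5% of 15654 genes. Fads2 had the largest F, at 0.25 (liver), -1.76 (spleen) and -0.17 (thymus) on the log2 scale (adjusted p = 5.69e-05, limma). Scap followed, at -0.64, 0.74 and 0.54 (adjusted p = 0.000553, limma), and then Hmgcs1, at -0.79, 0.93 and -0.41 (adjusted p = 0.00136, limma). Cyp51 at -0.16, 0.55 and -0.63 and Idi1 at -0.08, 0.03 and -0.70 passed as well, Idi1 narrowly (limma adjusted p = 0.0497). Without irradiated liver replicate 2 the number was 9.

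**Figure D3:**
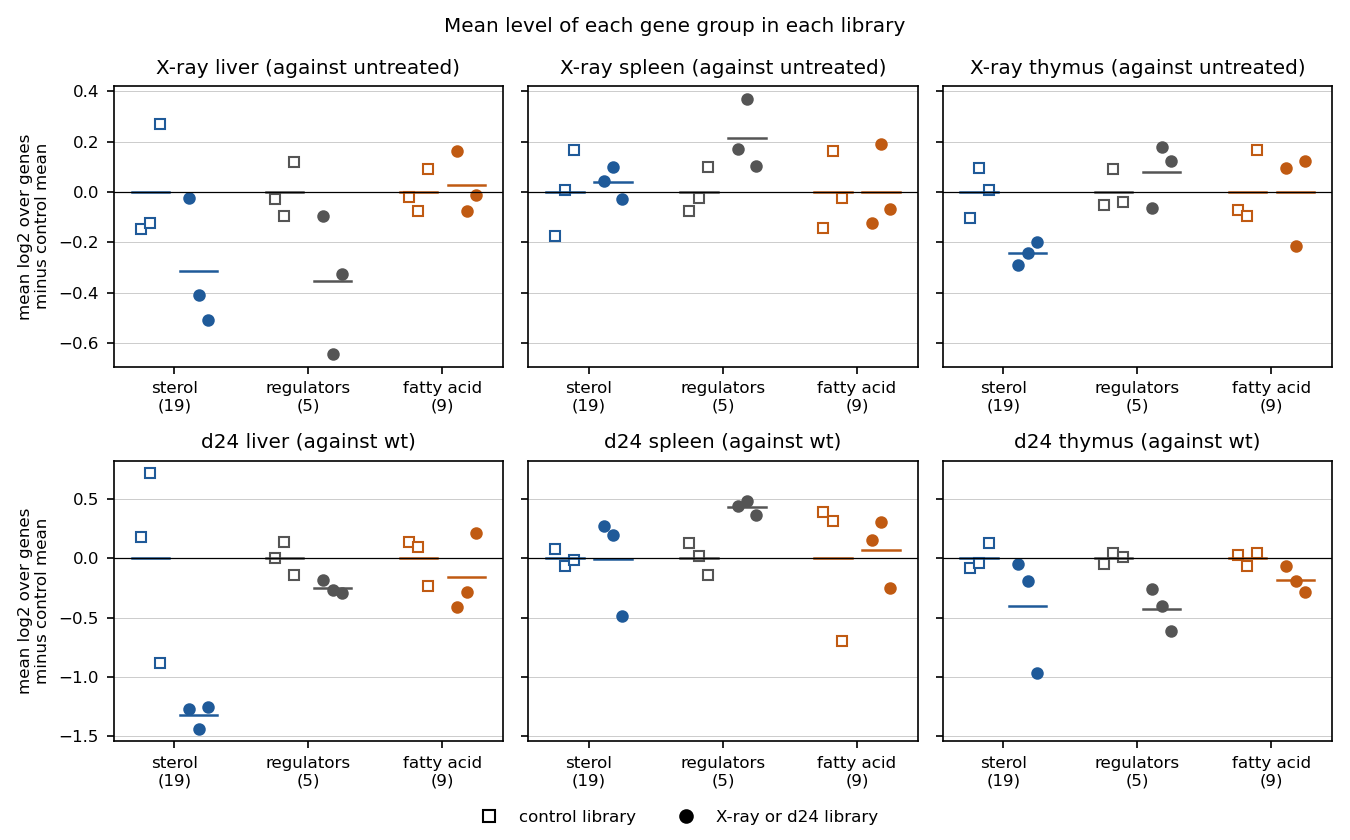
Mean log2 value of the sterol genes, regulators and fatty acid enzymes in each library, minus the mean of the comparison's control group, for all 6 comparisons. Points are libraries. Sterol genes in d24 liver lie between -1.44 and -1.25, while the 3 wild-type livers of that comparison spread from -0.89 to 0.71.

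In the single-end table, d24 liver had lower sterol gene values than wt liver, with 1 gene past the threshold. The d24 livers carry the control label and the wt livers the dose, while p53 targets summed to 364.8 to 676.3 in d24 and 190.3 to 314.2 in wt, so genotype and irradiation cannot be told apart here either. Hmgcs1 measured 353, 580 and 271 in wt and 72.1, 109 and 42.0 in d24 liver, so the groups did not overlap. It fell by 2.46 ± 0.38 on the log2 scale (limma adjusted p = 0.0271). Few genes passed in this comparison, 0.277% higher and 0.248% lower of 13695. The median log2 difference was -1.31 for sterol genes, with 18 of 19 negative, -0.38 for regulators, -0.02 for fatty acid enzymes and -0.08 for all genes. At an unadjusted p under 0.05 there were 18 of the 33 genes, 15 of them negative, and 13.4% of all genes. Groups did not overlap in 9 genes that were lower in d24 liver (27.3% of the list against 11.5% of all genes): Hmgcs1, Mvk, Pmvk, Idi1, Fdps, Fdft1, Msmo1, Nsdhl and Fads2. They did not overlap in 2 that were higher, Elovl6 and Scd2 (6.06% against 7.56%).

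**Figure D4:**
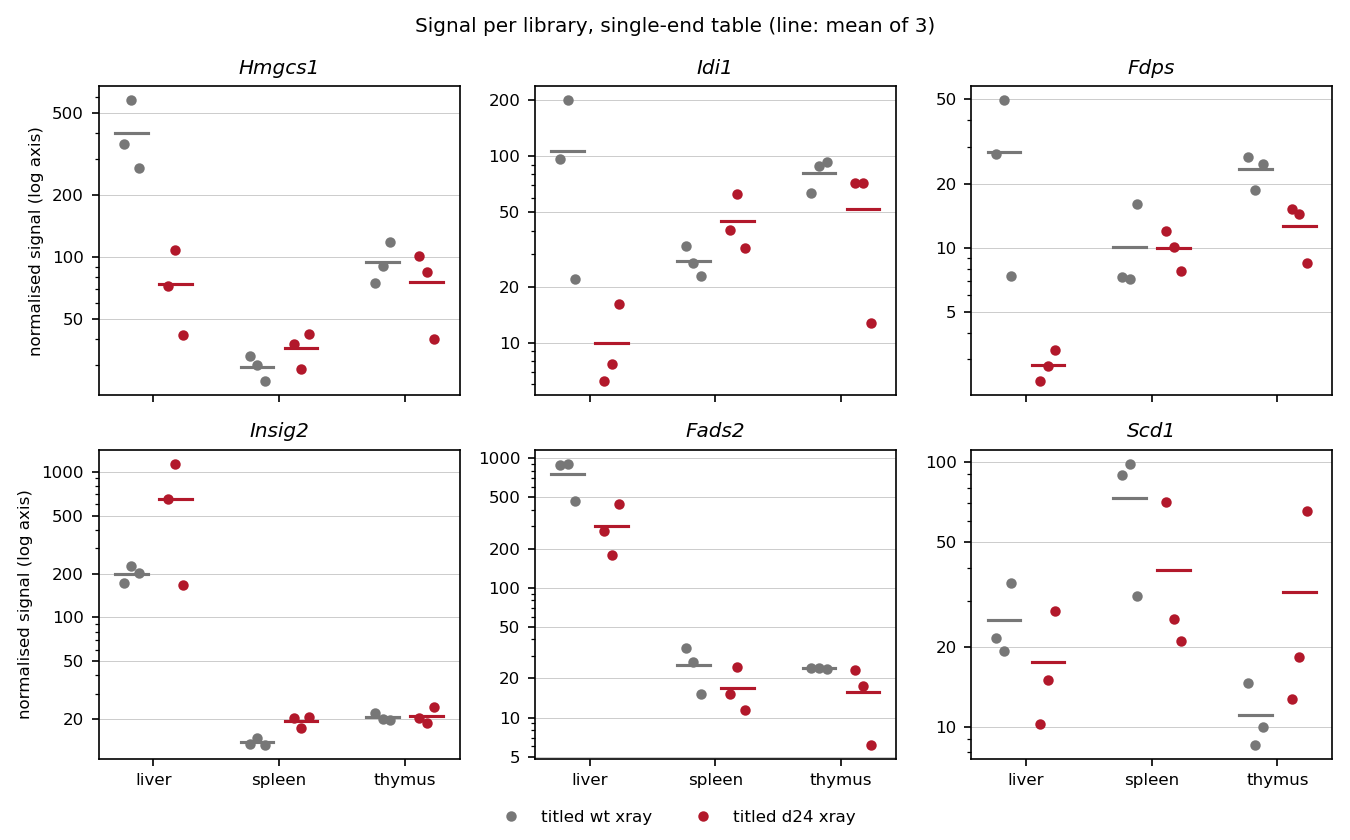
Signal of Hmgcs1, Idi1, Fdps, Insig2, Fads2 and Scd1 (log axis) in each single-end library titled xray, by tissue and genotype. Points are libraries and lines are means of 3. In liver, the 3 d24 libraries of Hmgcs1 lie at 109 or below and the 3 wild-type libraries at 271 or above.

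The isoprenoid enzymes Idi1 and Fdps had the most negative values of the list in d24 liver, beyond that of Hmgcs1, but did not pass the threshold. Idi1 measured 96.3, 200 and 22.0 in wt and 6.23, 7.69 and 16.2 in d24 liver (-2.97 ± 0.68, limma adjusted p = 0.0983). Fdps measured 27.6, 49.6 and 7.42 against 2.37, 2.80 and 3.30 (-2.76 ± 0.61, limma adjusted p = 0.0895). Msmo1 measured 69.5, 124 and 18.8 against 8.10, 12.6 and 9.62 (-2.40 ± 0.57, limma adjusted p = 0.106). In all 3 genes wt replicate 3 came closest to the d24 libraries. That library was the lowest of its group for 16 of 19 sterol genes, and wt replicate 2 was the highest for 18. Ebp was the sterol gene with a positive value (0.45 ± 0.27), and Lss (-0.25 ± 0.56) and Hsd17b7 (a sterol ketoreductase, -0.11 ± 0.39) were near 0.

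Insig2, the regulator that retains SREBP precursors, measured 173, 226 and 201 in wt and 645, 1135 and 168 in d24 liver (1.32 ± 0.55, limma adjusted p = 0.343), high in 2 of 3 d24 libraries. Insig1 measured 73.7, 124 and 124 against 115, 93.3 and 54.7, and Srebf1 272, 190 and 220 against 115, 46.5 and 269. Among fatty acid enzymes, Fads2 measured 882, 907 and 467 against 275, 178 and 443 (-1.36 ± 0.37, limma adjusted p = 0.152) and Fads1 1002, 1139 and 519 against 329, 222 and 573 (-1.27 ± 0.39). Acly, Acaca, Fasn and Me1 lay within 0.30 of no difference on the log2 scale. Scd1, highest of the fatty acid enzymes in the paired-end livers, measured 21.6, 19.4 and 35.1 against 10.2, 15.1 and 27.5.

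Values of other lists in the same livers were as follows. Summed B cell markers were 4.406 to 6.041 in d24 and 23.05 to 70.98 in wt liver, and thymocyte markers 67.29 to 100.1 against 142.3 to 185.1, without overlap. Erythroid markers did not overlap either, at 153.7 to 408.1 against 462.8 to 794.2, with 8 of 9 tested negative. Adipocyte markers, a list that also holds Pck1, lay the other way without overlap, at 3019 to 5064 against 1502 to 2539. Sums of the next lists overlapped. Fasting genes such as Pck1 summed to 10800 to 19930 against 10740 to 11810. Gene by gene, 7 of these 10 were positive and 3 negative, with a median log2 difference of 0.85 and no call by limma. Groups did not overlap in 5 of them that were higher in d24 liver and in 2 that were lower, against 7.56% and 11.5% of all genes. Hepatocyte markers summed to 380800 to 451800 against 294900 to 433800. The part of these lists in the sterol values was not tested. The 17 other sterol genes and 21 other fatty acid genes gave no call by limma, with 5 of each at an unadjusted p under 0.05. The Hmgcs1 call held in 3 of 6 refits without 1 library. Its adjusted p was 0.053 by limma without the filter, 0.0929 by limma without a trend, 0.0638 by edgeR and 4.83e-07 by DESeq2, and over all 18 alternatives it lay between 4.83e-07 and 0.165.

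**Figure D5:**
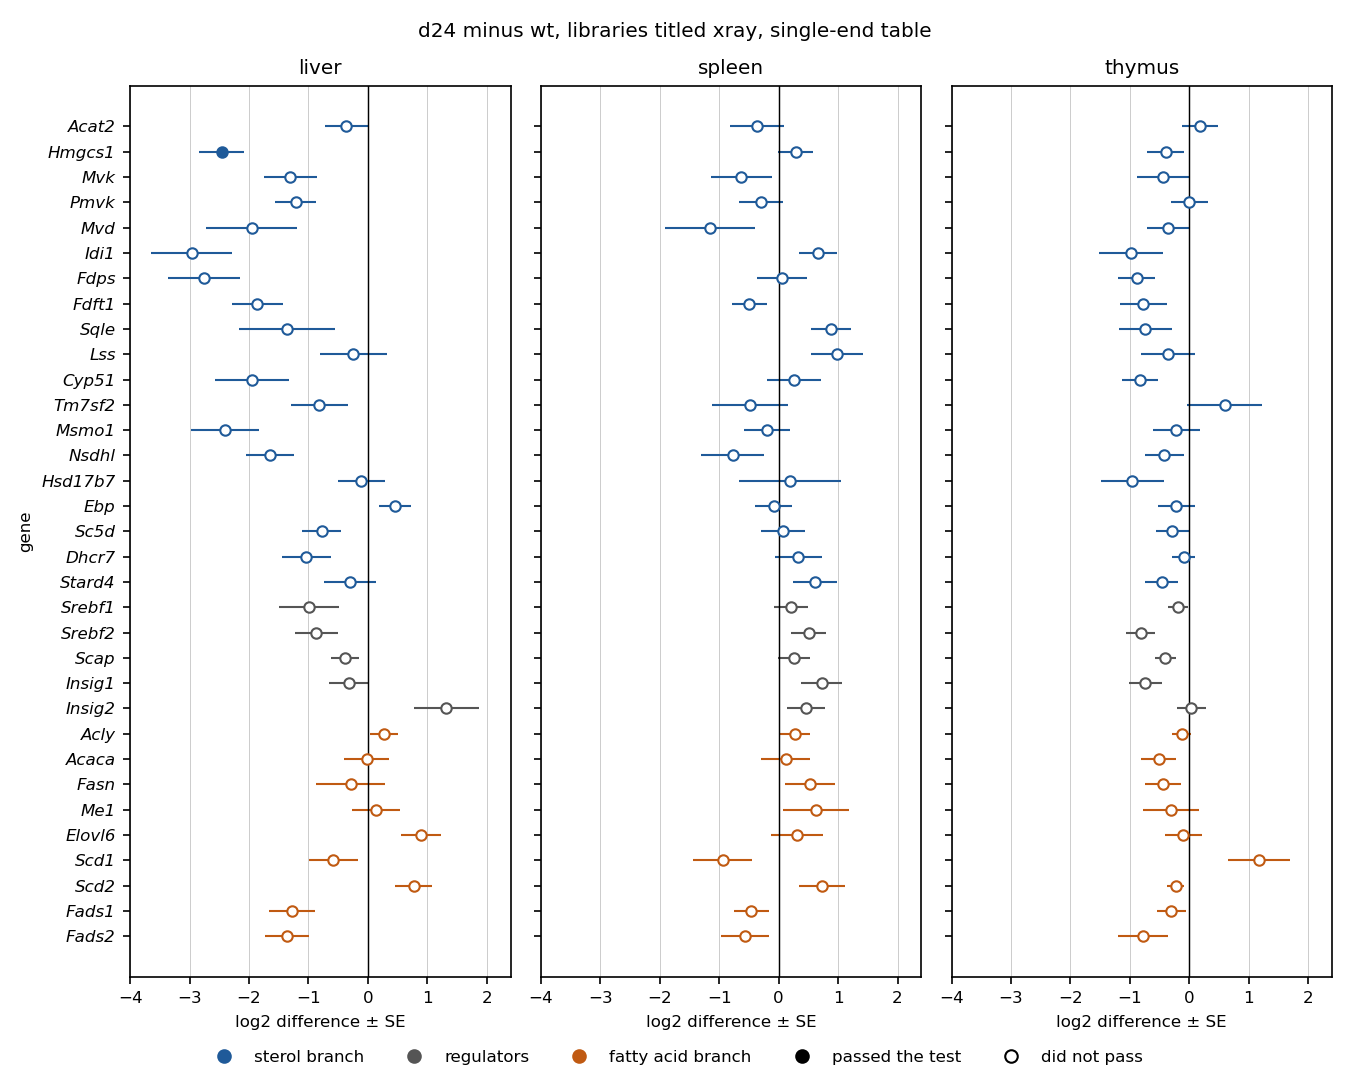
Log2 difference of d24 minus wild-type libraries titled xray (± SE) for the 33 genes in liver, spleen and thymus, grouped by role. The 1 filled point, which passed limma at an adjusted p under 0.05, is Hmgcs1 in liver at -2.46. Sterol genes spread widely in liver, with standard errors up to 0.81.

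In spleen no gene of the list differed between d24 and wt by limma, with 2 (Sqle and Lss) at an unadjusted p under 0.05, against 13.3% of all genes, and 0 calls by edgeR and by DESeq2. Of all 13554 genes, 1.04% were higher and 1.24% lower. Sqle measured 22.1, 13.9 and 14.8 in wt and 28.9, 41.7 and 24.4 in d24 spleen (0.88 ± 0.34, limma adjusted p = 0.264) and Hmgcs1 32.96, 29.8 and 24.9 against 37.6, 28.5 and 42.1 (0.29 ± 0.29). Medians were 0.05 for sterol genes, 0.47 for regulators, with 5 of 5 positive, 0.27 for fatty acid enzymes and -0.05 for all genes. In these spleens 7 of 10 p53 targets were higher in d24, and B cell markers summed to 58.67 to 343.6 against 482 to 639.5.

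The 6 genes with the largest X-ray differences in paired-end spleen are given here beside this d24 comparison, which shares no library with it. Fads2 was at -0.57 ± 0.40 (d24) and -1.76 ± 0.14 (X-rays), Scd2 at 0.73 ± 0.38 and 1.21 ± 0.20, and Hmgcs1 at 0.29 ± 0.29 and 0.93 ± 0.17, each pair with the same sign. Elovl6 was at 0.30 ± 0.44 and -1.08 ± 0.17, Mvd at -1.16 ± 0.75 and 0.80 ± 0.15, and Fdft1 at -0.49 ± 0.30 and 0.77 ± 0.17, each pair with opposite signs. The difference between the 2 comparisons was not tested, since the tables were normalised separately.

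In thymus no gene of the list passed limma either, with 6 at an unadjusted p under 0.05 (Fdps, Cyp51, Srebf2, Scap, Insig1 and Scd1, the last positive), against 9.83% of all genes, and 0 calls by edgeR and by DESeq2. Of all 13818 genes, 0.00724% were higher and 0% lower. Differences were negative for 29 of the 33 genes, with medians of -0.40 for sterol genes, -0.40 for regulators, -0.31 for fatty acid enzymes and -0.02 for all genes. Groups did not overlap in 9 genes that were lower in d24 thymus, 27.3% of the list against 7.55% of all genes. Srebf2 measured 215, 196 and 152 in wt and 134, 125 and 68.9 in d24 thymus (-0.82 ± 0.25, limma adjusted p = 0.344).

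A single library set much of the sterol part of this pattern. Minus the wt mean, the mean log2 values of the sterol genes were -0.05, -0.19 and -0.97 in d24 thymus replicates 1 to 3. Those of the regulators were -0.26, -0.40 and -0.61. In d24 thymus replicate 3, 16 of 19 sterol genes were the lowest of their group, with Idi1 at 12.8 against 72.2 and 72.0, Sqle at 9.21 against 36.1 and 34.3, and Hmgcs1 at 39.99 against 101 and 85.1. The same library had an Alb signal of 792.8, against 11.8 and 47.6 in the other d24 thymus libraries, and hepatocyte markers summed to at most 10.66 in wt thymus. Summed adipocyte markers reached 466.9 in d24 and 174.6 in wt thymus. Of 12 cycling genes 11 were negative, with sums of 1032 to 3225 in d24 against 2440 to 2848 in wt thymus. Among them, Cdk1 measured 43.6 in d24 replicate 3 against 126 and 129 in the other d24 libraries. Erythroid markers were positive in 5 of 6 tested (93.64 to 1309 against 110.6 to 208). Of these, Alas2 measured 563 in d24 replicate 3 against 1.11 and 2.01. Thymocyte markers were negative in 10 of 10 (4485 to 7363 in d24 against 7745 to 8361), B cell markers in 6 of 6 tested (27.15 to 32.07 against 48.37 to 68.01), and macrophage markers were positive in 8 of 8 tested (408.5 to 996 against 270.9 to 303). These sums did not overlap for the last 3 lists, and no gene of them passed limma. The part of all the lists named here in the sterol values was not tested. Without this library the median for sterol genes was -0.16.

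The d24 difference depended on tissue for 1 of the 33 genes, Hmgcs1, against 0.988% of 16092 genes (limma F test of the interaction, adjusted p = 0.0198). The log2 difference of this gene was -2.46 for liver, 0.29 for spleen and -0.40 for thymus. Without wt liver replicate 1, or without wt liver replicate 2, no gene of the list passed.

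Levels of these genes also differed between the 2 tables among wt livers titled as irradiated. As the tables were normalised separately and differ in library type, the values stand side by side without a test. Scd1 was at 2967 to 5505 in the paired-end and 19.4 to 35.1 in the single-end livers, a log2 difference of -7.29, and only 0.0167% of 11985 genes had a lower value. Fdps was at 890 to 1197 against 7.42 to 49.6 (-5.47) and Fads2 at 781 to 946 against 467 to 907 (-0.22). All 19 sterol genes and all 9 fatty acid enzymes were lower in the single-end livers, with medians of -2.31 and -2.49, against 0.10 for regulators and 0.07 for all genes. Within a table, where the scaling is shared, the median liver-minus-spleen difference of the sterol genes was 4.75 in the paired-end and 1.99 in the single-end libraries, and that of the fatty acid enzymes 4.09 and 1.01. For Scd1 it was 4.09 and -1.39, so that in the single-end table Scd1 stood lower in liver than in spleen.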

How the data were processed

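The authors deposited 2 tables of signal per gene, CPM scaled by a further factor per library. Per the submitters' processing notes, edgeR and mm10 were used, and per the labels' protocols the kit was TruSeq Stranded Total RNA. The sources used here name no aligner, no counter and no strand setting. All values were whole multiples of the worth of 1 read (within 0.01 of a read), so reads were recovered. CPM had been assumed when the design was written, and the same test was kept. 18 columns of the paired-end table matched no library and were not used.

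Members and lists were chosen with earlier results of these data known. All 33 members are reported, and of the other pathway genes the 3 called ones with the smallest p, of which 1 gene is not reported here. limma 3.58.1 (R 4.3.3, trend) was run within 1 table on log2(signal + 0.5), over the 6 libraries of a comparison, for genes at 1 or more in at least 3 libraries. Log2 differences are on this scale, and understate changes of low genes. Benjamini-Hochberg adjustment covered all genes, with a threshold of 0.05. Tissue contrasts used 1 fit of the 9 untreated libraries, and interactions F tests over 18 libraries. edgeR 4.0.16 and DESeq2 1.42.0 on recovered reads, other scalings, filters, pseudocounts, a replicate block and left-out libraries were alternatives. The test code was tested on simulated data. In spleen, same-numbered untreated and irradiated libraries deviated together (r = 0.177, 0.241 and 0.191 across genes), a hint of pairing from the data. The values were 0.055, 0.476 and 0.249 in thymus, also a hint, and 0.037, -0.182 and 0.104 in liver. Overlapping and antisense genes can share reads: Hmgcs1, Idi1, Fdps, Lss, Cyp51, Srebf1, Tm7sf2, Me1 and Scd2 overlap exons of another gene, besides Fdft1 and Scap. Promoters and coordinates are from RefSeq and the GRCm38 annotation.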

Additional observations from a re-analysis of the deposited data

Results flagged for a closer look

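Differences between tissues in the response to X-rays are given by the F of the interaction (limma, 18 libraries), beside 30.5% of all genes that passed. They passed for Fads2 (F = 40.29), Scap (23.78), Hmgcs1 (18.52), Cyp51 (10.86), Srebf2 (10.03), Msmo1 (9.779), Mvd (9.684), Fdft1 (8.932), Scd2 (8.86), Mvk (7.749), Me1 (6.754), Fasn (6.471), Fads1 (5.553) and Idi1 (5.432). For Mvk no single tissue passed, and the log2 differences were -0.81 in liver, 0.25 in spleen and 0.28 in thymus. Srebf2 likewise passed in no single tissue, at -0.57, 0.38 and -0.15. Msmo1 and Mvd rose in spleen, by 0.61 and 0.80, and were at -0.21 and -0.52 in liver.

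The d24 difference depended on tissue for Hmgcs1 (F = 15.66). The wt spleen and thymus libraries of that test carry p53 target levels that, set beside the paired-end ones, go against their titles.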

How the results depend on the processing

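Alternatives covered the pseudocount, the filter, the scaling, limma without trend, edgeR, DESeq2, 1 fit of all 18 libraries of a table, Xist as a covariate, the replicate block and each library left out. None of the 27 calls on single genes changed sign, while 51 of 171 uncalled values did so under some alternative. Of the 33 genes, the number called in X-ray liver moved from 0 to 1 with DESeq2 and to 5 with 1 fit, and lay between 0 and 10 with 1 library left out. In X-ray thymus it moved from 9 to 5 with 1 fit, was 11 with quantile normalisation, and lay between 5 and 10 with 1 library left out. In d24 liver it moved from 1 to 0 without the filter, to 0 without trend, to 0 with edgeR, to 9 with DESeq2, to 5 with 1 fit and to 2 with Xist, and lay between 0 and 6 with 1 library left out (0 without d24 replicate 1, wt replicate 1 or wt replicate 2, and 6 without d24 replicate 3 or wt replicate 3). With 1 library left out it lay between 9 and 17 for the X-ray interaction, between 0 and 4 for the d24 interaction and between 12 and 22 in X-ray spleen. It stayed at 0 in d24 spleen and thymus under every alternative run. With the replicate block it was 0, 17 and 10 in X-ray liver, spleen and thymus and 1, 0 and 0 in d24 liver, spleen and thymus. Only in X-ray spleen did every same-numbered pair correlate above 0.1, and in thymus the pairs were at 0.055, 0.476 and 0.249. Over all genes, the block moved the number called from 2945 to 4270 in X-ray thymus and from 5351 to 5709 in X-ray spleen. Beside Stard4 and Acaca the block changed no call in spleen. The causes were not tested. Over genes and alternatives, a call was lost with the gene still tested 35 times in X-ray spleen, 21 times in X-ray thymus and 6 times in d24 liver. In X-ray spleen the filter on a mean of at least 5 also removed Me1 and Tm7sf2, which are not in this count. A low gene such as Mvd in d24 spleen, at 0.114 in 1 library, rests on few reads.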
